A study of Mus musculus with 5 samples.

Results

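The 9 genes described here carry out the presentation of cytosolic peptides on major histocompatibility complex (MHC) class I: the light chain B2m, the heavy chains H2-K1 and H2-D1, the peptide transporter subunits Tap1 and Tap2, the loading factor Tapbp, and the immunoproteasome subunits Psmb8, Psmb9 and Psmb10. They were chosen by name, as the classical chains, the transporter with its docking partner, and the interferon-inducible catalytic subunits, and each of the 9 matched 1 entry of the 38130 per library. All 9 were among the 11296 genes with enough signal to be tested (a mean scaled level of at least 1 over the libraries). Their levels were measured by RNA sequencing of total RNA from regulatory T (Treg) cells, the Foxp3-expressing CD4 T cells that restrain immune responses.

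Every library was made from CD4+YFP+ cells of C57BL/6 mice carrying a Cre recombinase and a yellow fluorescent protein driven from Foxp3, so the wild-type animals carry Cre as well. There were 5 libraries in 4 groups. KI denotes Foxp3Cre-YFP mice with malt1fl/C472A at 6 weeks of age (2 libraries). These mice have 1 floxed Malt1 allele, which Cre deletes in Treg cells, and 1 allele with the C472A substitution, which per the labels inhibits the protease activity of Malt1. KO denotes Foxp3Cre-YFP mice with malt1fl/fl at 21 days (1 library), in which Cre deletes both alleles in Treg cells. WT denotes Foxp3-Cre-YFP reporter mice at 6 weeks (6-week WT, 1 library) or at 21 days of age (21-day WT, 1 library). Malt1 encodes a paracaspase that links antigen receptors to the transcription factor NF-kB. The labels do not say whether libraries came from separate animals, so the spread behind every p-value may be technical. In the test of KI against WT at 6 weeks that spread was measured between the 2 KI libraries only, as WT has 1 library. The test (limma) also moderated it by the spread of other genes at a similar level.

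On almost all nucleated cells, class I heavy chains paired with B2m display peptides that proteasomes cut from cytosolic proteins and that the Tap1-Tap2 transporter carries into the endoplasmic reticulum, where Tapbp (tapasin) bridges the transporter to empty class I molecules. In lymphocytes and in cells exposed to interferon-gamma, Psmb8 (LMP7), Psmb9 (LMP2) and Psmb10 (MECL-1) replace the constitutive catalytic subunits Psmb5, Psmb6 and Psmb7 in newly built proteasomes, which alters the peptides that are made. The transactivator Nlrc5, interferon regulatory factors and NF-kB are known to act on the promoters of these genes.

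Several measures separated the libraries along a line that is not the genotype, and they stand beside every result that follows. The depth estimated from the deposited bounds was 25.3 and 25.6 M fragments (M, mega) in the KI libraries, 8.41 M in the library labelled KO, 7.46 M in 6-week WT and 30.0 M in 21-day WT. Both age-matched comparisons therefore set shallow and deep libraries against each other. Across the 11296 genes, a correlation that shares all genes and rests on no replicates, the library labelled KO was most like WT at 6 weeks (r = 0.939) and less like WT at 21 days (r = 0.885). Malt1 itself had a scaled FPKM of 55.9 and 37.8 in the KI libraries, 17.6 in the library labelled KO, 15.2 in 6-week WT and 27.0 in 21-day WT. The library labelled KO thus lay between the WT libraries, and since gene-level values also count exons outside a deleted part, this level neither shows nor refutes the deletion. Foxp3, which defines the sorted cells, was present in every library, at 70.1 and 73.6 in KI, 30.5 in KO, 39.5 in 6-week WT and 70.7 in 21-day WT.

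Levels are given as scaled FPKM, the authors' fragments per kilobase of transcript relative to all mapped fragments, divided here by 1 factor per library. The bounds deposited with each value spanned 0.946% to 9.92% of a member's value on either side, and they cover the estimate within a library, not the spread between animals. By level, all 9 members ranked within the top 14.3% of tested genes in every library. B2m was the highest member in all 5, and Psmb10 the lowest. Member differences in the 3 comparisons were taken on log2(scaled FPKM + 1). On that scale no member differed 2-fold in KI against WT at 6 weeks, KO against WT at 21 days, or WT at 6 weeks against WT at 21 days.

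**Figure D1:**
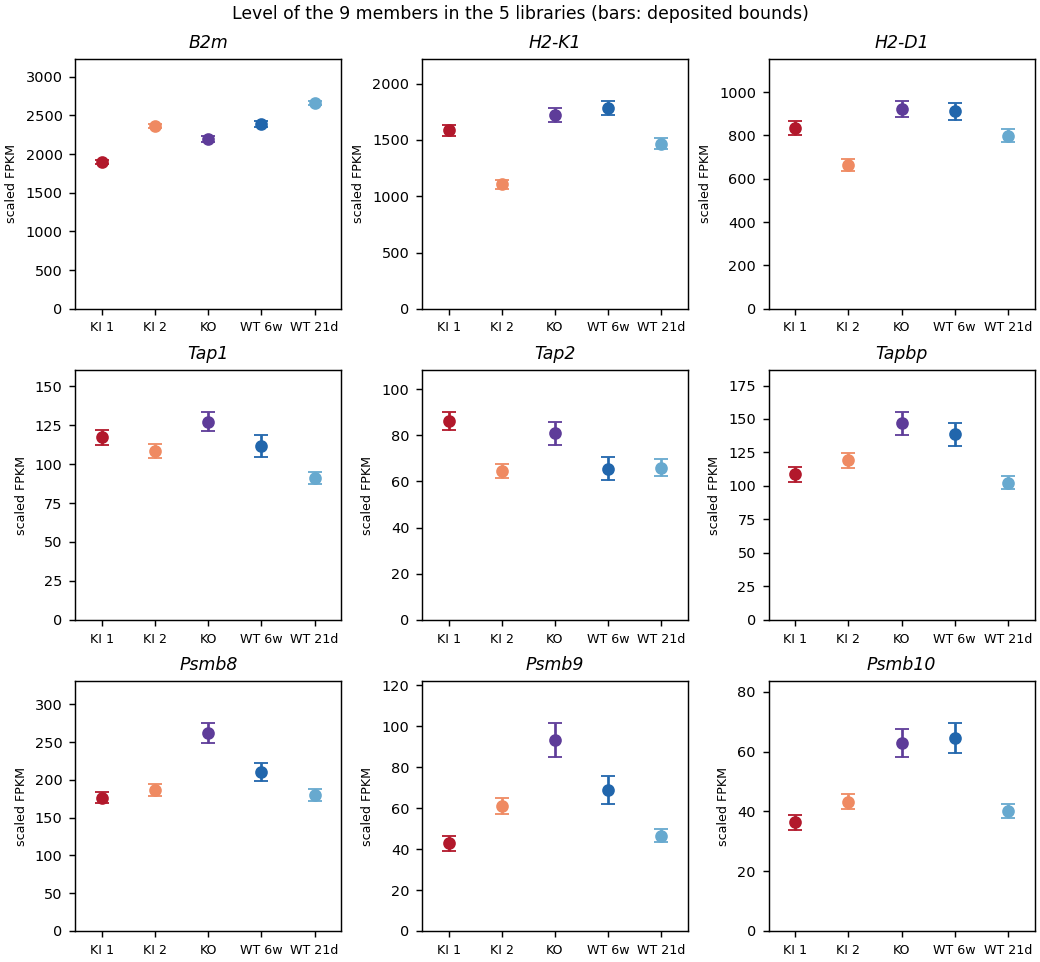
Scaled FPKM (vertical axis, from 0) of each member in KI replicates 1 and 2, KO, WT at 6 weeks and WT at 21 days, with the deposited lower and upper bounds as bars. Psmb8, Psmb9, Psmb10, Tapbp, H2-K1 and H2-D1 are each higher in KO and in WT at 6 weeks than in the other 3 libraries, while B2m is highest in WT at 21 days.

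The class I chains were among the most abundant transcripts of these cells, within the top 0.699% of tested genes in every library. B2m (ENSMUSG00000060802, chromosome 2, 122147686 to 122153083, GRCm38, plus strand), the invariant light chain without which heavy chains do not reach the surface, had a scaled FPKM of 1897 and 2364 in KI, 2195 in KO, 2388 in 6-week WT and 2665 in 21-day WT. It was the one member that was lower in both KI libraries, and in the library labelled KO, than in either WT library; 16.8% of all tested genes likewise had both KI libraries below both WT libraries, and 34.5% had KO below both. The bounds of KI replicate 2 and WT at 6 weeks overlapped. In KI it averaged 2131 ± 330 (SD, n = 2), 0.17 lower than WT at 6 weeks on the log2 scale, where limma gave an unadjusted p of 0.831 and an adjusted p of 0.941. The SE of that KI difference was 0.749, larger than the log2 gap of 0.32 between the KI replicates. It thus rests largely on other genes at a similar level. In KO the log2 difference of B2m from WT at 21 days was -0.28 (interval from the bounds -0.31 to -0.25, 1 library each, no test). In bulk libraries such as these, fewer cells of a type and less RNA per cell cannot be told apart.

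H2-K1 (ENSMUSG00000061232, chromosome 17, 33996017 to 34000333, minus strand) and H2-D1 (ENSMUSG00000073411, chromosome 17, 35262730 to 35267499, plus strand) encode the classical heavy chains of C57BL/6 mice, which bind the peptide. H2-K1 had a scaled FPKM of 1586 and 1106 in KI, 1721 in KO, 1786 in 6-week WT and 1466 in 21-day WT. H2-D1 had 833.0 and 664.6 in KI, 922.0 in KO, 911.7 in 6-week WT and 798.2 in 21-day WT. Both were highest in the libraries labelled KO and WT at 6 weeks, whose values differed from each other by less than the bounds, and lowest in KI replicate 2. The gap between the KI replicates, 0.52 on the log2 scale for H2-K1 and 0.33 for H2-D1, was larger than the difference of the KI mean from WT at 6 weeks (-0.43 and -0.29, adjusted p 0.804 and 0.817 with limma) and than that of KO from WT at 21 days (0.23 and 0.21).

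The 2 heavy chains kept nearly the same proportion everywhere. The ratio of H2-K1 to H2-D1 was 1.90 and 1.66 in KI, 1.87 in KO, 1.96 in 6-week WT and 1.84 in 21-day WT. Their sum relative to B2m varied more, at 1.27 and 0.749 in the KI libraries, 1.20 in KO, 1.13 in 6-week WT and 0.850 in 21-day WT, and its extremes were the KI replicates. Heavy-chain genes are near-identical in part: 8.79% of the 50-base windows of the longest H2-K1 transcript, and 14.3% of those of H2-D1, occur in another gene's transcript, most of the H2-K1 ones in H2-D1. How the authors' counting split reads of such windows is not given in the sources used here, so the values of both genes are uncertain to that extent; B2m has no such window, but it lies wholly within the antisense gene Patl2, from which unstranded reads could not be separated.

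The promoters of the heavy chains are shown because these genes kept their proportion; that of B2m is shown beside them because its libraries ranked differently. Each runs 5′ to 3′ on the gene's own strand, from 250 bases before to 50 bases after the RefSeq start (GRCm38.p6), at chr17:34000298-34000597 for H2-K1, chr17:35262844-35263143 for H2-D1 and chr2:122147437-122147736 for B2m. Capitals mark matches on either strand to an interferon response element (GAANNGAAA), a CCAAT box (CCAAT), the core of a cyclic AMP response element (TGACG) or the NF-kB consensus.
H2-K1: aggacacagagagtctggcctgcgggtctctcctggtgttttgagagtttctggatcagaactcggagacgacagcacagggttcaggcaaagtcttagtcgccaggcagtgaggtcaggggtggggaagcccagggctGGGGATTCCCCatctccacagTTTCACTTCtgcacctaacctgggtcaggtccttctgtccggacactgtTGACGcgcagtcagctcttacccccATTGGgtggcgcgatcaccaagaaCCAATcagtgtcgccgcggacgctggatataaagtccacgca
H2-D1: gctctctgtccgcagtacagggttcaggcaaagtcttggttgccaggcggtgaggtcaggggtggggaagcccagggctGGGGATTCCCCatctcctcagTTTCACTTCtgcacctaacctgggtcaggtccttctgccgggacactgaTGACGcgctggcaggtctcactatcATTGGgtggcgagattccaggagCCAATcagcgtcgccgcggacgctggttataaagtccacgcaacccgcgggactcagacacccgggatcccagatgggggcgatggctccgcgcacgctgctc
B2m: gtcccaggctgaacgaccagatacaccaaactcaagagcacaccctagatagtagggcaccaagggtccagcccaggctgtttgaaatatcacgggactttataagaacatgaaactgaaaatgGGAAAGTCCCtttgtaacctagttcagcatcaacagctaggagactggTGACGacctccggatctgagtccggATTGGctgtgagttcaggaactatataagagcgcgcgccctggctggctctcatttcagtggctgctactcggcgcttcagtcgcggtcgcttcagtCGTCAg
Over their 239 aligned bases, the H2-K1 and H2-D1 promoters were 89.5% identical. Both hold, in the same order, an NF-kB run that reads as a match in overlapping frames and on both strands, an interferon response element, TGACG and a pair of CCAAT boxes. The NF-kB run starts at position -111 from the RefSeq start in H2-K1 and -171 in H2-D1. The H2-D1 window lies within the annotated gene, which starts further upstream. The B2m window holds the NF-kB consensus, 2 matches to TGACG and 1 CCAAT box, and no match to GAANNGAAA. Of all 32851 promoters in the RefSeq table, 7.52% hold GAANNGAAA, 37.4% CCAAT, 20.8% TGACG and 4.51% the NF-kB consensus on either strand. A match is a description of letters and shows no bound factor.

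Among the genes of peptide transport and loading, the library labelled KO had the highest level of Tap1 and Tapbp, and WT at 21 days the lowest. Tap1 (ENSMUSG00000037321, chromosome 17, 34187553 to 34197225, plus strand), which forms the peptide pore with Tap2, had a scaled FPKM of 117.1 and 108.4 in KI, 127.3 in KO, 111.6 in 6-week WT and 91.1 in 21-day WT. The KI libraries lay on either side of WT at 6 weeks (log2 difference 0.01, SE 0.232, adjusted p 0.99 with limma) and both lay above WT at 21 days. Tap1 was 1.39 times as high in KO as in WT at 21 days (log2 0.48, interval from the bounds 0.38 to 0.57) and 1.14 times as high as in WT at 6 weeks; the bounds of KO and KI replicate 1 overlapped.

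Tap2 (ENSMUSG00000024339, chromosome 17, 34203527 to 34216321, plus strand) had a scaled FPKM of 86.2 and 64.7 in KI, 80.9 in KO, 65.6 in 6-week WT and 66.0 in 21-day WT. KI replicate 1 and KO stood above the other 3 libraries, which differed from each other by less than their bounds, so the KI replicates were the highest and the lowest of all 5. Tap2 is the member whose WT libraries were closest to each other (log2 -0.01). Of its 50-base windows 12.6% also occur in other transcripts, mostly of the antisense gene Gm15821.

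Tapbp (ENSMUSG00000024308, chromosome 17, 33915899 to 33929288, plus strand) had a scaled FPKM of 108.6 and 119.2 in KI, 146.8 in KO, 138.5 in 6-week WT and 102.5 in 21-day WT. KO and WT at 6 weeks differed from each other by less than their bounds and were above the other 3 libraries by more than the gap between the KI replicates. The log2 difference was -0.28 for KI against WT at 6 weeks (SE 0.238, adjusted p 0.668 with limma), 0.51 for KO against WT at 21 days and 0.43 between the WT libraries. Of the 50-base windows of Tapbp 21.0% occur in other transcripts, mostly of the antisense gene Gm19412.

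Tap1 and Psmb9 start back to back, and the window before Tap1 is shown because it overlaps that of Psmb9. It lies at chr17:34187306-34187605 (GRCm38.p6, RefSeq, plus strand), and capitals mark CCAAT and TGACG as above.
Tap1: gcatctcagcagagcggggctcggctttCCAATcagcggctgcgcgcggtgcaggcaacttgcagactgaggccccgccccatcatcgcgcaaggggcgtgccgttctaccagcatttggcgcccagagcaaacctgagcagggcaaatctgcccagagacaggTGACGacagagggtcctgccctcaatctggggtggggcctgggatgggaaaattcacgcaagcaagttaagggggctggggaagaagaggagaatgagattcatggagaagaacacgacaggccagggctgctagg
The RefSeq starts of Tap1 and Psmb9 are 226 bases apart on opposite strands, and their promoter windows share 275 bases, with the same CCAAT and TGACG. The ratio of Psmb9 to Tap1 was 0.366 and 0.565 in the KI libraries, 0.734 in KO, 0.618 in 6-week WT and 0.512 in 21-day WT. Their longest coding transcripts have 1352 nt (Psmb9) and 2953 nt (Tap1). The part of transcript length or of the shared stretch in this ratio was not tested. In the annotation the longest forms of the genes overlap by 212 bases, and 12.5% of the Psmb9 windows of 50 bases occur in Tap1, so reads there cannot be assigned without strand. Tap2 has no promoter shown here.

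Psmb9 and Psmb10 spanned the widest range of the members, with the highest library at 2.18 and 1.77 times the lowest. Psmb9 (LMP2; ENSMUSG00000096727, chromosome 17, 34181988 to 34187764, minus strand) had a scaled FPKM of 42.9 and 61.2 in KI, 93.5 in KO, 69.0 in 6-week WT and 46.6 in 21-day WT. The library labelled KO was above all others by more than the bounds, and KI replicate 1 and WT at 21 days were lowest. With 1 added to each level (a pseudocount), Psmb9 in KO was 1.99 times WT at 21 days (log2 0.99, interval from the bounds 0.83 to 1.15). This was the largest difference of any member in any of the 3 comparisons and lay at the 2-fold threshold. It reached the threshold with upper-quartile scaling (log2 1.03), with no scaling (1.37, where the median of all genes was 0.35) and with a pseudocount of 0.1. Centred on transcript length, as described below, it was 0.66, within 2-fold. Against WT at 6 weeks the difference of KO was 0.43.

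Psmb8 (LMP7; ENSMUSG00000024338, chromosome 17, 34197721 to 34201454, plus strand) was the most abundant of these subunits, with a scaled FPKM of 176.5 and 186.4 in KI, 262.2 in KO, 210.0 in 6-week WT and 180.2 in 21-day WT. KO was above all other libraries by more than the bounds, and the bounds of the KI libraries and WT at 21 days overlapped each other. The log2 difference was -0.21 for KI against WT at 6 weeks (SE 0.258, adjusted p 0.758 with limma) and 0.54 for KO against WT at 21 days (interval from the bounds 0.44 to 0.63).

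Psmb10 (MECL-1; ENSMUSG00000031897, chromosome 8, 105935728 to 105938392, minus strand), the one subunit of the 3 encoded outside the MHC, had a scaled FPKM of 36.4 and 43.2 in KI, 62.8 in KO, 64.6 in 6-week WT and 40.2 in 21-day WT. Here the libraries formed separate levels, KO with WT at 6 weeks and the KI libraries with WT at 21 days, with a step of 0.54 on the log2 scale between them against a gap of 0.25 between the KI replicates. Psmb10 had the lowest p of the members in KI against WT at 6 weeks, with a log2 difference of -0.69, an SE of 0.238, an unadjusted p of 0.054 and an adjusted p of 0.473 with limma. Against WT at 21 days the KI difference was -0.02. Psmb10 overlaps the antisense gene Gm16156 over its whole length.

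The window around the RefSeq start of Psmb8 is shown because, of the 8 members with a RefSeq promoter, it alone holds a GAS element (TTCNNNGAA), which is marked in capitals. It lies at chr17:34197945-34198244 (GRCm38.p6, plus strand), within the annotated gene, which starts further upstream at 34197721.
Psmb8: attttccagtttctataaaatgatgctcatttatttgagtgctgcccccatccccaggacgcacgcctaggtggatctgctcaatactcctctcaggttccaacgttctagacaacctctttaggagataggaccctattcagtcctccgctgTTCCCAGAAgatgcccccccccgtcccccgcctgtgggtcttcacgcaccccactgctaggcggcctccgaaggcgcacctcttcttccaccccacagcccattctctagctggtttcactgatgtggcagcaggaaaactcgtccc
This element is held by 8.30% of all promoters. The Tapbp window, which also lies within its annotated gene, holds a pair of CCAAT boxes, and that of Psmb10 none of the 5 motifs searched.

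Set against its constitutive counterpart in the same library, each immunoproteasome subunit gives a ratio that needs no scaling between libraries. Psmb8 to Psmb5, the chymotrypsin-like pair, was 3.96 and 3.28 in KI, 4.47 in KO, 3.85 in 6-week WT and 3.68 in 21-day WT. Psmb9 to Psmb6, the caspase-like position, was 0.605 and 0.989 in KI, 1.30 in KO, 0.907 in 6-week WT and 0.694 in 21-day WT. Psmb10 to Psmb7, the trypsin-like position, was 0.887 and 0.712 in KI, 0.984 in KO, 1.22 in 6-week WT and 0.770 in 21-day WT. At all 3 positions KO and WT at 6 weeks lay above WT at 21 days (with overlapping bounds for Psmb8), but KI replicate 1 exceeded WT at 6 weeks for Psmb8 and KI replicate 2 did so for Psmb9.

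Averaged over the 3 positions, the log2 ratio differed by -0.31 between KI and WT at 6 weeks, by 0.51 between KO and WT at 21 days and by 0.37 between the WT libraries. The constitutive subunits themselves differed little, with log2 differences of -0.20 to -0.09 in KI against WT at 6 weeks and 0.10 to 0.28 in KO against WT at 21 days. Psmb5 shares 57.1% of its 50-base windows with other entries, chiefly Gm3375, and Psmb7 shares 28.1% with Nek6, so the ratios with these genes are uncertain. A ratio of transcript levels does not measure assembled proteasomes.

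**Figure D2:**
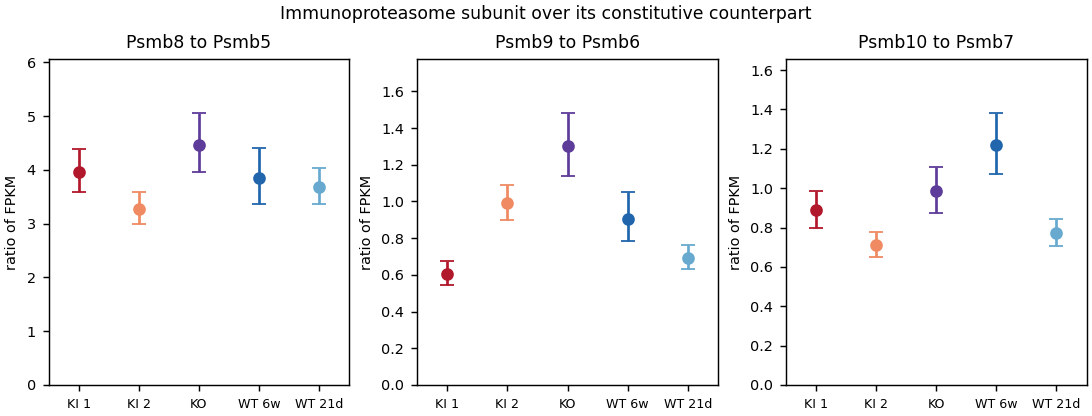
Ratio of FPKM (vertical axis, from 0) of Psmb8 to Psmb5, Psmb9 to Psmb6 and Psmb10 to Psmb7 in KI replicates 1 and 2, KO, WT at 6 weeks and WT at 21 days, with bars combined from the deposited bounds. KO has the highest ratio for Psmb8 (4.47) and Psmb9 (1.30), and WT at 6 weeks for Psmb10 (1.22).

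Taking the comparisons in turn, KI at 6 weeks was compared with WT at 6 weeks to show the members' levels when, per the labels, Malt1 protease activity is inhibited. Of the 9 members 0 passed limma's test (adjusted p of 0.473 or more), 0 had an unadjusted p under 0.05, and 0 were past 2-fold in both KI libraries. Over all tested genes 0.00885% passed the test, which is 1 gene (the mitochondrial tRNA mt-Tp, named after its value was seen), 10.7% had an unadjusted p under 0.05, and 3.01% were past 2-fold higher and 2.80% lower in both KI libraries. In 7 of the 9 members, all but Tap1 and Tap2, both KI libraries were below WT at 6 weeks, against 38.0% of all genes. The median log2 difference of the members was -0.28 against -0.00 for all genes, and it was -0.17 without KI replicate 1. Against WT at 21 days, a library of like depth, the members' median was 0.01, with 5 members higher and 4 lower (49.9% and 49.6% of all genes), and B2m was lower, Tap1 and Tapbp higher, in both KI libraries (28.5% and 29.1% of all genes).

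The library labelled KO was compared with WT at 21 days to show the levels when Malt1 is deleted in Treg cells. Of the 9 members 8 were higher in KO, all but B2m, against 51.1% of all genes (48.6% were lower), and the median log2 difference was 0.48 against 0.02 for all genes. Past 1.5-fold, 2 members (Psmb9 and Psmb10) were higher, against 16.4% of all genes, and 0 were past 2-fold, against 6.13% higher and 8.14% lower. By role the median was 0.21 for the chains, 0.48 for transport and loading and 0.63 for the immunoproteasome. KO exceeded both WT libraries in 6 members (H2-D1, Tap1, Tap2, Tapbp, Psmb8 and Psmb9; 34.5% of all genes). Against WT at 6 weeks, a library of like depth but another age, the median was 0.08, with the immunoproteasome at 0.32. KO is 1 library, so no difference has a replicate check and none was tested.

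The WT libraries differ from each other in age and in depth, which cannot be told apart. WT at 6 weeks exceeded WT at 21 days in 7 members, all but B2m and Tap2, against 50.9% of all genes, with a median of 0.28 against 0.01 for all genes. One member, Psmb10, was past 1.5-fold (log2 0.67; 11.5% of all genes), and 0 were past 2-fold (3.38% of all genes higher, 5.18% lower). The comparisons share libraries, so their values are given side by side and are not independent. In 6 of the 9 members (H2-K1, H2-D1, Tapbp, Psmb8, Psmb9 and Psmb10) KO and WT at 6 weeks were both above the other 3 libraries, which held for 23.6% of all genes.

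**Figure D3:**
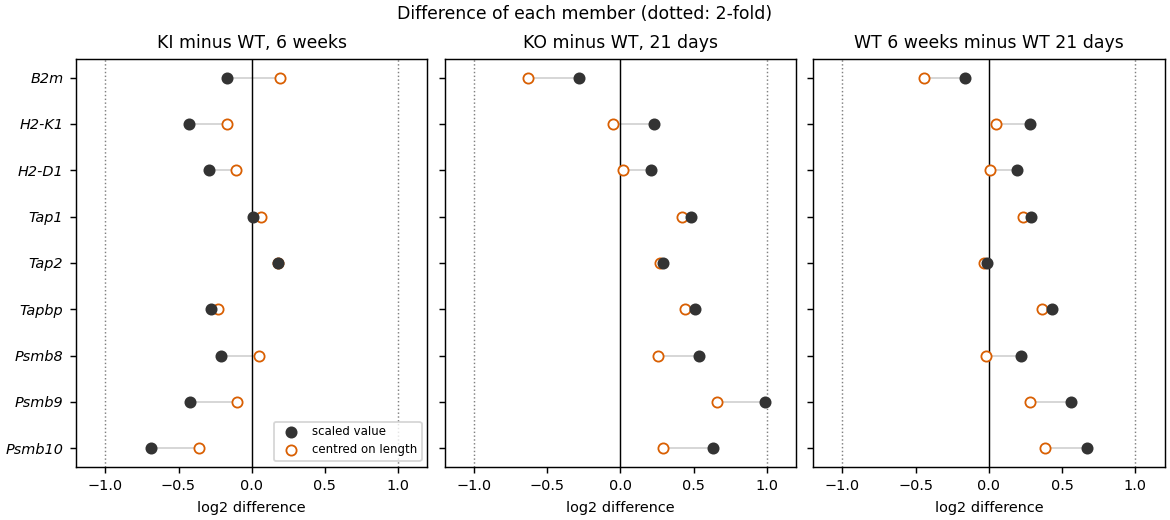
Log2 difference (horizontal axis) of each member for KI minus WT at 6 weeks, KO minus WT at 21 days and WT at 6 weeks minus WT at 21 days. Filled points are scaled values, open points the same after centring on transcript length, and dotted lines mark 2-fold; no point passes them, and Psmb9 in KO (0.99) lies closest.

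Transcript length ran with each of the 3 comparisons. Among genes with a longest coding transcript under 1000 nt the median log2 difference was -0.31 in KI against WT at 6 weeks, 0.30 in KO against WT at 21 days and 0.27 between the WT libraries. Among those over 6000 nt it was 0.46, -0.50 and -0.39 in the same comparisons. Short transcripts were thus higher, and long ones lower, in the shallow libraries, while KI against WT at 21 days (-0.09 and 0.05 in these classes) and KO against WT at 6 weeks (0.08 and -0.11) showed little of this. The members' longest coding transcripts run from 860 nt (B2m) to 3442 nt (Tap2), with Psmb8, Psmb9 and Psmb10 at 1628, 1352 and 1311 nt.

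**Figure D4:**
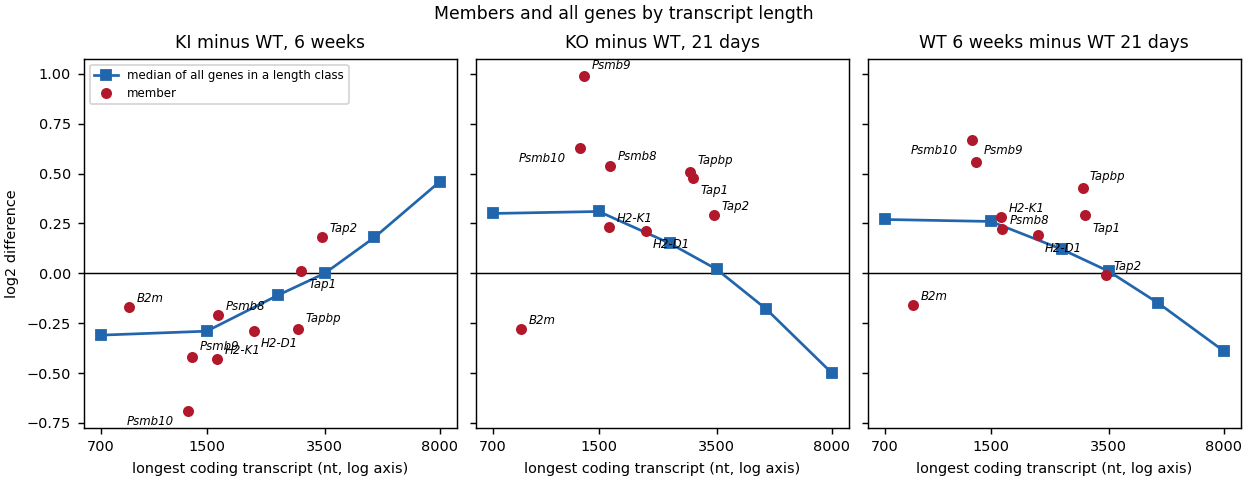
Log2 difference (vertical axis) against length of the longest coding transcript (horizontal axis, log scale, nt) for KI minus WT at 6 weeks, KO minus WT at 21 days and WT at 6 weeks minus WT at 21 days. Squares are medians of all genes in 6 length classes, each drawn at a point within its class, and red points are the members; B2m lies below the medians of short genes in KO (-0.28) and Psmb9 above them (0.99).

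Genes of like length (within a factor of 1.25) had median differences near those of the members in KI and between the WT libraries, and smaller ones in KO. For KI against WT at 6 weeks these were -0.28 over the members and -0.26 over their like-length genes, and for the WT libraries 0.28 and 0.24. For KO against WT at 21 days they were 0.48 and 0.28. After each library was centred on genes of like length, an alternative chosen after seeing the data, the members' median was -0.10 for KI, 0.27 for KO and 0.05 between the WT libraries. The heavy chains in KO then lay at -0.05 (H2-K1) and 0.02 (H2-D1) and B2m at -0.63, lower than WT at 21 days by more than 1.5-fold, as were 13.2% of all genes.

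In KO the larger positive differences that were left lay in the transporter, the loading factor and the immunoproteasome, and WT at 6 weeks shared part of them. After centring on length, the log2 difference of KO from WT at 21 days was 0.66 for Psmb9, 0.44 for Tapbp, 0.42 for Tap1, 0.29 for Psmb10, 0.27 for Tap2 and 0.26 for Psmb8. Of these only Psmb9 was past 1.5-fold. Between the WT libraries the centred difference was 0.28 for Psmb9, 0.36 for Tapbp, 0.23 for Tap1 and 0.38 for Psmb10. It was -0.03 for Tap2 and -0.02 for Psmb8. For KO against WT at 6 weeks it was 0.38 for Psmb9, 0.30 for Tap2, 0.28 for Psmb8 and 0.19 for Tap1. It was 0.08 for Tapbp and -0.09 for Psmb10. In the centred values Tapbp and Psmb10 were the 2 members with KO and WT at 6 weeks both above the other 3 libraries (18.9% of all genes). The constitutive subunits, with transcripts of 899, 798 and 1160 nt, lay at -0.10 (Psmb5), -0.25 (Psmb6) and -0.07 (Psmb7) in KO. The part of depth and of length in the differences was not tested beyond this.

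The rest of the proteasome stayed within 2-fold in these comparisons. Of the 3 constitutive catalytic, 11 other 20S core and 18 regulatory-particle (19S) genes tested, 0 were past 2-fold in any of the 3 comparisons. The median for KO against WT at 21 days was 0.26, 0.29 and 0.22 in these lists, against 0.63 for the immunoproteasome subunits, and after centring on length -0.10, 0.15 and -0.07, against 0.29. For KI against WT at 6 weeks the medians were -0.11, -0.31 and -0.29, against -0.42 for the immunoproteasome, and after centring 0.25, 0.06 and -0.05, against -0.10. The thymus-restricted subunit Psmb11 was at or below 0.0513 in all libraries and was not tested.

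Of the 10 activators, inhibitor and assembly factors, Psmg3, an assembly chaperone, was past 2-fold in KO (log2 1.10, with 9.49 in KO and 3.89 in WT at 21 days). Centring on length left 0.75, within 2-fold. Psme1 and Psme2 encode the PA28 activator, which is induced by interferon-gamma along with the immunoproteasome. Psme2 had a scaled FPKM of 90.6 and 108.1 in KI, 133.9 in KO, 135.7 in 6-week WT and 73.1 in 21-day WT, and Psme1 had 128.9 and 152.6 in KI, 196.5 in KO, 183.2 in 6-week WT and 146.0 in 21-day WT. Psme2 was highest in KO and WT at 6 weeks and lowest in WT at 21 days. After centring on length Psme2 differed from WT at 21 days by 0.49 (KI mean), 0.52 (KO) and 0.59 (WT at 6 weeks) in log2. The centred difference of the KI mean from WT at 6 weeks was -0.09. The bounds of Psme2 before centring were 70.28 to 110.9 in KI replicate 1 and 64.81 to 81.35 in WT at 21 days, which overlap. For Psme1 the centred difference was 0.07 for KO against WT at 21 days and 0.03 between the WT libraries.

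Of the 13 other class I and class I-like heavy-chain genes tested, 2 were lower past 2-fold in both KI libraries than in WT at 6 weeks. The same 2, H2-K2 and H2-Q1, were higher past 2-fold in KO and in WT at 6 weeks than in WT at 21 days. No coding transcript was matched to H2-K2, so it may not encode a chain and was not centred on length. H2-K2 had 10.2 and 6.10 in KI, 19.01 in KO, 24.3 in 6-week WT and 5.60 in 21-day WT. H2-Q1 had 2.46 and 2.01 in KI, 7.24 in KO, 7.06 in 6-week WT and 2.78 in 21-day WT. For H2-Q1, centring on length left -1.13 for KI against WT at 6 weeks. It left 0.91, within 2-fold, both for KO against WT at 21 days and between the WT libraries. The more abundant H2-Q4 had 348.3 and 146.4 in KI, 271.1 in KO, 194.5 in 6-week WT and 215.4 in 21-day WT, so the KI replicates were the highest and the lowest. H2-T23, which encodes Qa-1, was like the classical chains highest in KO and WT at 6 weeks, but with KI replicate 1 lowest, at 113.6 and 132.2 in KI, 179.2 in KO, 173.0 in 6-week WT and 133.1 in 21-day WT, and H2-Q7 had 245.4 and 202.0 in KI, 188.1 in KO, 176.0 in 6-week WT and 205.7 in 21-day WT. These genes share sequence with H2-K1 and H2-D1, and their values are uncertain for the same reason; H2-Q8, H2-Q9 and H2-T9 were not analysed here.

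Among the 10 other loading and trimming factors, the aminopeptidase Lnpep (IRAP) was past 2-fold higher in both KI libraries than in WT at 6 weeks and past 2-fold lower in KO and in WT at 6 weeks than in WT at 21 days. Its scaled FPKM was 27.9 and 41.1 in KI, 6.81 in KO, 10.01 in 6-week WT and 30.2 in 21-day WT. Its longest coding transcript has 12052 nt, and centring on length left 1.02 for KI and -1.23 for KO. The KI replicates then lay at 0.75 and 1.28, no longer both past 2-fold. Between the WT libraries centring left -0.90, within 2-fold. Tpp2, a cytosolic peptidase, was past 2-fold lower in KO (log2 -1.01), and centring on length left -0.85, within 2-fold. Erap1, which trims peptides in the endoplasmic reticulum, had 21.6 and 33.8 in KI, 19.6 in KO, 19.2 in 6-week WT and 27.9 in 21-day WT. Calr, the chaperone calreticulin, had 131.4 and 148.4 in KI, 174.5 in KO, 187.8 in 6-week WT and 161.4 in 21-day WT, and differed past 2-fold in no comparison.

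Among known regulators of these genes, 6 of the 15 listed had both KI libraries above WT at 6 weeks, against 36.6% of all genes. In 5 both KI libraries were below it, against 38.0% of all genes, and the median log2 difference of the list was 0.03. Irf1 was among the 6 and did not pass the test. Irf1, which activates class I and immunoproteasome promoters after interferon-gamma, had a scaled FPKM of 193.1 and 111.2 in KI, 99.2 in KO, 80.9 in 6-week WT and 134.6 in 21-day WT. Its log2 difference was 0.85 for KI against WT at 6 weeks and -0.44 for KO against WT at 21 days. From WT at 21 days, which lay between the KI replicates, the KI difference of Irf1 was 0.12. Nlrc5, the class I transactivator, had 69.6 in KI replicate 2, 84.4 in KO, 75.1 in 6-week WT and 70.5 in 21-day WT; its value in KI replicate 1 is marked as failed by the authors' software and is not given, though it entered the counts over lists. Among the 15 regulators listed, Creb1 was past 2-fold, lower in KO (log2 -1.11), and centring on length left -0.60, within 2-fold.

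Some type I interferon response and class II genes had larger differences in KI against WT at 6 weeks than any member. Of 13 type I interferon response genes, 5 were past 2-fold lower in both KI libraries than in WT at 6 weeks, the list's median was -1.26, and the largest difference was that of Ifit3 (1.89 and 3.99 in KI, 11.4 in WT at 6 weeks). In KO against WT at 21 days 2 of them were lower past 2-fold, with a median of -0.35, whereas 8 of the 9 members were higher. Of 9 class II genes, 3 were past 2-fold lower in both KI libraries than in WT at 6 weeks (H2-Aa, H2-Ab1 and H2-Eb1), and 4 were higher and 1 lower in KO than in WT at 21 days. Among 10 interferon receptors, kinases and feedback genes, 0 passed 2-fold in KI (both libraries) against WT at 6 weeks, in KO against WT at 21 days or between the WT libraries, although the mean log2 difference of KI from WT at 6 weeks was 1.23 for Ifngr1 and 1.41 for Socs3, with the higher value in KI replicate 1. Across these lists and the related lists above 112 genes were tested in KI against WT at 6 weeks, and 0 passed limma's test (lowest adjusted p 0.359, Irf7), while 14 (12.5%) had an unadjusted p under 0.05, against 10.7% of all genes.

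Markers of other cell types were not evenly spread over the libraries. Of 5 listed plasmacytoid dendritic cell markers 4 were tested, and their summed scaled FPKM was 1.69 and 1.11 in KI, 5.13 in KO, 42.4 in 6-week WT and 3.28 in 21-day WT, with Siglech at 0 in KI replicate 1. The 7 myeloid markers summed to 51.5 and 31.4 in KI, 60.6 in KO, 143.8 in 6-week WT and 37.5 in 21-day WT, with none at 0, and the 5 B cell markers to 3.89 and 2.96 in KI, 6.38 in KO, 21.8 in 6-week WT and 16.3 in 21-day WT, with none at 0. The 5 erythroid markers summed to 28.2 and 3.56 in KI, 2.56 in KO, 55.8 in 6-week WT and 6.80 in 21-day WT, with Hba-a2 at 0 in KI replicate 2 and Hba-a1 at 0 in KO. These 4 sums were highest in WT at 6 weeks, the library against which KI is compared, and the summed level of the class II list was highest there too (169.1 and 110.8 in KI, 270.7 in KO, 395.4 in 6-week WT and 124.4 in 21-day WT). The 5 T cell markers summed to 829.1 and 937.6 in KI, 1170 in KO, 1297 in 6-week WT and 1010 in 21-day WT, and the 2 CD8 T cell markers to 6.09 and 5.79 in KI, 10.1 in KO, 13.2 in 6-week WT and 8.95 in 21-day WT, with none at 0. KO and WT at 6 weeks were both above the other 3 libraries in 4 of the 5 T cell markers and 2 of the 2 CD8 markers, against 23.6% of all genes. Of the 9 members 6 had this order, and 2 had it after centring on length. The T cell markers have a median length of 1462 nt. Their centred median difference was -0.01 for KO against WT at 21 days and 0.19 between the WT libraries. The 5 Treg markers summed to 759.6 and 710.1 in KI, 342.8 in KO, 387.5 in 6-week WT and 727.1 in 21-day WT, with 4 of the 5 lower in both KO and WT at 6 weeks than in the other 3 libraries and none at 0. The 3 NK cell markers, none of which was tested, summed to 0.520 and 0.630 in KI, 2.02 in KO, 1.35 in 6-week WT and 0.769 in 21-day WT, with Klre1 at 0 in both KI libraries and KO. The 3 plasma cell markers summed to 64.8 and 41.5 in KI, 59.7 in KO, 34.8 in 6-week WT and 40.3 in 21-day WT, with none at 0. Most of this sum was Xbp1, at 62.28 and 41.08 in KI, 53.72 in KO, 30.85 in 6-week WT and 38.94 in 21-day WT. Jchain had 2.415 and 0.425 in KI, 5.87 in KO, 3.52 in 6-week WT and 1.22 in 21-day WT. Sdc1 was at or below 0.436 in all libraries and highest in 6-week WT. The part of other cell types in the members' differences was not tested.

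**Figure D5:**
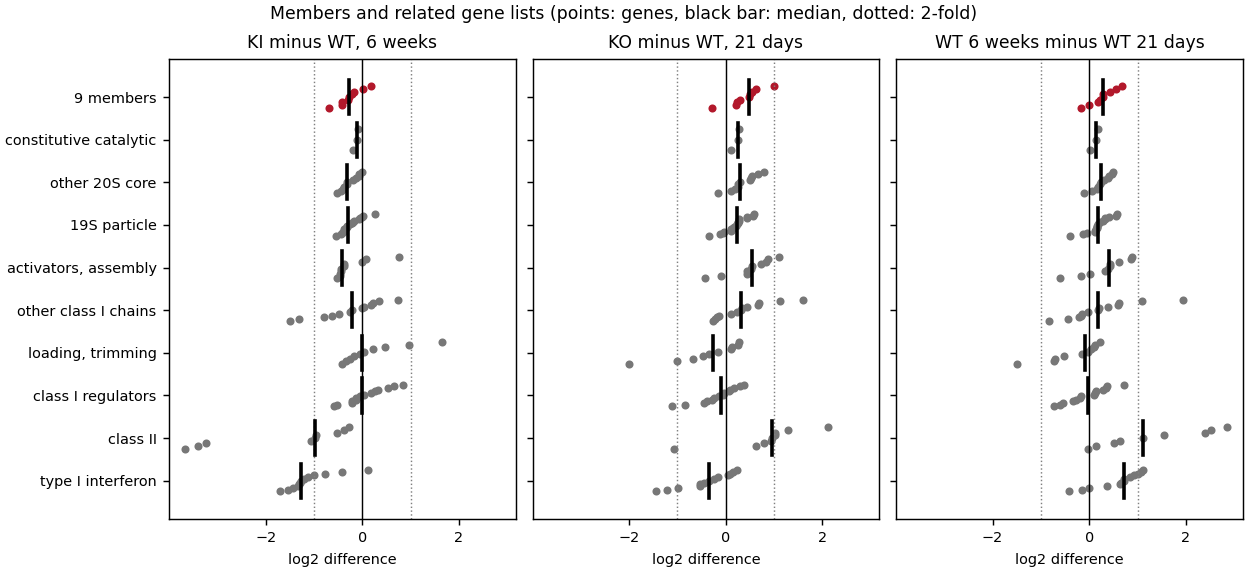
Log2 difference (horizontal axis) of single genes (points) and their median (black bar) in the 9 members and 9 related lists for KI minus WT at 6 weeks, KO minus WT at 21 days and WT at 6 weeks minus WT at 21 days. The members' medians (-0.28, 0.48 and 0.28) stand beside those of the other 20S core genes (-0.31, 0.29 and 0.24), and class II and type I interferon genes spread past 2-fold (dotted); Nlrc5 is left out.

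The genes whose profiles over the 5 libraries were nearest to the mean profile of the 9 members, by root mean square distance of centred log2 values among 5479 genes, were Eif3b (distance 0.0187), Pgd, Rae1, Nap1l4 and Atp5b. For the chains they were Uvrag, Atp1b3 and E130309D02Rik, for transport and loading Exosc2, Surf6 and Tnfrsf26, and for the immunoproteasome Anapc11 (0.0247), Ap1s1 and Kars. None of these is a gene of the lists above. Profiles over 5 libraries that share depth and length trends can be alike for many genes, and the distance describes these libraries only.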

How the data were processed

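RNA of 5 libraries was sequenced. Per the file headers, the authors deposited FPKM for each gene together with upper and lower bounds and a status. CASAVA, HISAT2 2.1.0 and Cufflinks 2.2.1 on GRCm38 are named by the submitters' processing notes; order, settings, annotation and strand setting are not given in the sources. Since FPKM are no counts, depth is an approximate value computed from the bounds, which were taken as 2 standard errors from each value.

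Each library was scaled by the median of its ratios to the geometric mean of all libraries over 9874 genes at FPKM 1 or more in every library (factors 0.868 and 1.01 in KI, 1.15 in KO, 1.15 in 6-week WT, 0.876 in 21-day WT). Tests and differences used log2(scaled FPKM + 1) of genes whose scaled FPKM averaged at least 1; the pseudocount makes differences of low genes smaller. KI (2 libraries) was compared with WT at 6 weeks (1 library) by limma 3.58.1 with trend in R 4.3.3, two-sided, with Benjamini-Hochberg adjustment at 0.05 over all 11296 genes. With 1 library a group, differences carry no test, and their intervals come from the bounds. Length centring used the longest coding transcript in GENCODE M21 for 9868 genes. The limma and length steps were run on simulated data to see whether planted differences were returned at their size. For limma this does not show how many real differences the test would miss or call falsely. Promoters are from RefSeq, and 8 of 9 members matched. Python 3.11.15 and Biopython 1.88 were used otherwise.

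The members and gene lists were chosen with earlier results of these data known. Named were all members, list genes past 2-fold (at most 5 a list), and related genes chosen by name: Nlrc5, Irf1, Psmb5, Psmb6, Psmb7, Psme1, Psme2, H2-T23, H2-Q7, Erap1 and Calr (1 further gene of this choice is not reported here). H2-Q4, Psmb11, Irf7, Ifngr1, Socs3, Xbp1, Sdc1 and the markers listed at 0 were named after their values were seen.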

Additional observations from a re-analysis of the deposited data

How the results depend on the processing

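No paired analysis was possible because the groups compared share fewer than 2 replicate numbers. For KI against WT at 6 weeks, limma called 1 gene, but 50 with a pseudocount of 0.1, 25 with the low-value filter at 5, 22 when centred on transcript length, 15 among protein-coding genes with status OK, and 0 with upper-quartile scaling, no low-value filter, no trend or WT at 21 days as control; in none of these fits was a member called (adjusted p 0.381 to 1). The members' median in KI (-0.28) was -0.57 without scaling, where the median of all genes was -0.26, -0.10 when centred on length, 0.01 with WT at 21 days as control, -0.14 with both WT libraries, and -0.25 to -0.17 when leaving out 1 KI replicate. The median in KO (0.48) was 0.86 without scaling (all genes 0.35), 0.27 when centred on length and 0.08 with WT at 6 weeks as control. That between the WT libraries (0.28) was 0.68 without scaling (all genes 0.35) and 0.05 when centred on length. Members past 2-fold in KO (0) became 2 without scaling, 1 with upper-quartile scaling, 1 with a pseudocount of 0.1 and 2 at 1.5-fold; between the WT libraries (0) they became 1 without scaling and 1 at 1.5-fold. The mean log2 subunit ratio in KI against WT at 6 weeks (-0.31) was -0.20 from summed FPKM. For Psmb10 the unadjusted p of limma, above 0.05 in the main fit, fell under 0.05 in some other fits. These were the fits without scaling, with a pseudocount of 0.1 and among protein-coding genes with status OK. In KI the sign turned for B2m (0.19) and Psmb8 (0.05) when centred on length, for Tap1 (-0.28) and Tap2 (-0.11) without scaling and when leaving out 1 KI replicate (-0.04 to 0.07 for Tap1, -0.02 to 0.39 for Tap2), and for Tapbp (0.15), Psmb8 (0.01) and Psmb9 (0.14) with WT at 21 days as control. The cause was not tested. With 1 KO library and 1 WT library per age, the spread between animals limits every comparison.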
